A study of Sus scrofa with 2 samples.

Results

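The peaks described here lie far from any gene start and come from CUT&Tag of ZBTB16 in immature spermatogonia, of wild-type (WT) genotype, from pig testicles. They were the peaks that the authors annotated as distal intergenic and placed more than 50 kb from the nearest transcription start site (TSS). By that rule 348 of the 10273 peaks of replicate 1 (3.39%) and 240 of the 7301 peaks of replicate 2 (3.29%) were members. The study set out to find the genes that ZBTB16 binds in immature spermatogonia. It held 1 group of 2 libraries of 100000 cells each, with no treated or mutant group, so values were compared between the libraries and between classes of peak. The labels name no age or breed of the pigs for these libraries, and an IgG control library was not analysed here.

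ZBTB16, also called PLZF, is a zinc finger transcription factor of the BTB family that recruits corepressors and is known for keeping spermatogonial stem cells undifferentiated. CUT&Tag tethers a transposase through an antibody to the chromatin that a protein occupies, and the DNA cut out there is sequenced. Sites far from genes can be enhancers or other regulatory elements, and in any assay of this kind they can also be repeats or assembly gaps that collect fragments. Each peak carried the authors' fold enrichment, which fitted the fragments at the summit plus 1, divided by the background expected there plus 1. The number of fragments at the summit and that background were recovered from the deposited fold and p-value. All positions are on Sscrofa11.1, and no sequence is shown.

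The tallest peak of either list was a distal peak on chromosome 4. It lay at chr4:53953105-53954088 in replicate 1 and ended at 53954102 in replicate 2. It was enriched 24.6-fold in replicate 1 and 22.6-fold in replicate 2, rank 2 in each list, and it rested on 2498 fragments (95% exact Poisson interval 2401 to 2598) and 2221 fragments (2130 to 2315). The summits of the 2 libraries fell on the same base. The background there was also the highest of any member, 100.5 fragments in replicate 1 and 97.2 in replicate 2, which was 83.2 and 99.3 times the lowest background of each list. The nearest genes were the pseudogene LOC110260479, whose TSS lay 627 kb away and to which the authors assigned the peak, and LOC110260267 at 700 kb on the other side.

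Chromosome Y carried few peaks, and many of them were far from genes. Of its 13 peaks in replicate 1 and 9 in replicate 2, 5 in each list were members (38.5% and 55.6%), and 4 of the 5 overlapped between the libraries. In each list 4 members lay beyond LOC110257930, a long non-coding RNA (lncRNA) gene and the last gene annotated on the chromosome. The strongest, chrY:43257485-43258030, lay 1765 kb beyond that TSS. It was enriched 18.8-fold and 16.9-fold in replicates 1 and 2, ranks 4 and 8 of the lists, from 54 and 48 fragments over a background of 1.93 and 1.90. Its summits also fell on the same base. The region chrY:42726749-42728418 reached 7.71-fold in replicate 1 and 6.16-fold in replicate 2, from 50 and 29 fragments over backgrounds of 5.61 and 3.87. The region chrY:42873293-42874346 reached 6.85-fold and 5.16-fold, from 36 and 23 fragments over 4.40 and 3.65. These last regions and the one on chromosome 4 were the 3 members of highest background in both lists. Both of these Y regions had a lower fold over a higher background than the outermost one. A peak at chrY:42821955-42822354 (6.34-fold, 13 fragments) was in replicate 1 alone, and one at chrY:42976963-42977276 (5.48-fold, 16 fragments) in replicate 2 alone. Elsewhere on the chromosome, chrY:8385787-8386549, assigned to the lncRNA LOC110257912 at 203 kb, was at 5.52-fold in replicate 1 and 6.14-fold in replicate 2. Chromosome X, in contrast, held 1 member in replicate 1 and 4 in replicate 2, of which the region 60.1 kb from USP27X, a deubiquitinase gene, was in both (5.27-fold and 5.86-fold).

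Among the other regions found in both libraries, the highest ranked lay upstream of HMGA2, which encodes an architectural chromatin protein of growing and embryonic cells. That peak, chr5:30110509-30111407, lay 77.1 kb from the HMGA2 TSS and had a fold enrichment of 6.95 in replicate 1 (22 fragments) and 6.79 in replicate 2 (18 fragments). LOC106507220 was annotated nearer to that peak, at 36.1 kb. A region at chr10:3522377-3523060, assigned to the pseudogene LOC102167370, was at 6.0-fold and 6.27-fold. The peak chr13:144319006-144319581 was assigned to GAP43, a gene of the neuronal growth cone, at 139 kb, and was at 5.96-fold and 6.32-fold. LSAMP was annotated 14.8 kb from that peak, nearer than the near end of GAP43 at 44.7 kb. The peak chr3:74220187-74220855 lay 75.5 kb from C1D, which encodes a cofactor of the nuclear exosome, and was at 5.90-fold and 6.14-fold. The peak chr6:83982701-83983654 lay 62.9 kb from RPS6KA1, a kinase gene of the ERK pathway, and was at 5.61-fold and 6.64-fold, with 26 fragments in each library. The last of the 10 top-ranked shared regions, chr12:35668295-35668681, lay 71.5 kb from YPEL2 and was at 5.55-fold and 5.41-fold. Apart from chromosome 4 and the outermost region of chromosome Y, the top shared regions therefore rested on 12 to 50 fragments at the summit, and their counting intervals are wide (13.8 to 33.3 for the 22 fragments near HMGA2).

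In all, 60 members of replicate 1 overlapped a peak of replicate 2 by at least 1 bp, and each met 1 member of replicate 2. The authors assigned the same gene in both lists at all 60, which overlapping positions so far from a TSS make nearly certain. Fold enrichment was higher in replicate 1 at 32 of them and higher in replicate 2 at 28, and the ratio of the folds ran from 0.681 to 1.65 with a median of 1.03. The summits lay a median of 139 bp apart and at most 482 bp. Without chromosome Y and the chromosome 4 region, the 55 other regions held 765 summit fragments in replicate 1 and 641 in replicate 2, a ratio of 1.19. The ratio of the lowest backgrounds of the lists, the only sign of relative depth in the files, was 1.23. Of the 60 regions 36 were assigned to protein-coding genes, 18 to lncRNA genes and 5 to pseudogenes.

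**Figure D1:**
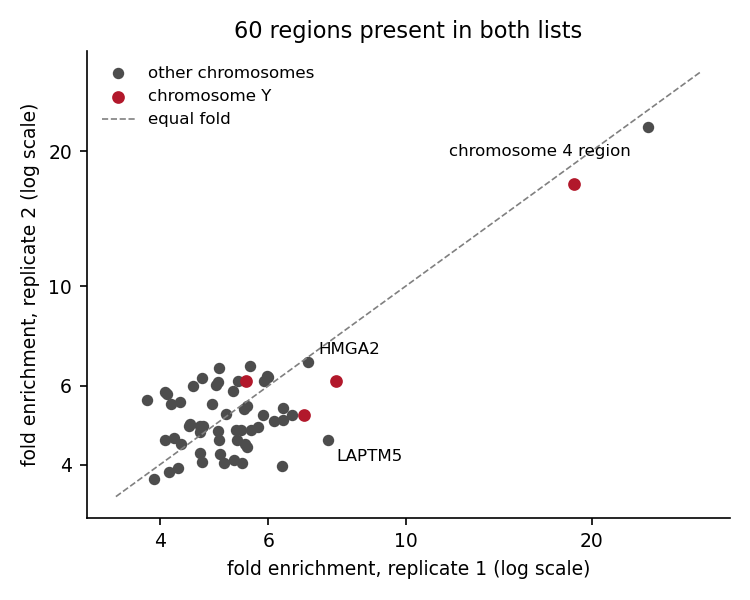
Fold enrichment in replicate 1 (x axis, log scale) and replicate 2 (y axis, log scale) of the 60 distal regions beyond 50 kb found in both lists, 1 point per region, with chromosome Y in red and a dashed line of equal fold. The chromosome 4 region (24.6 and 22.6) and 1 region of chromosome Y (18.8 and 16.9) stand far above the others, none of which exceeds 8.

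Most distal peaks beyond 50 kb were seen in 1 library alone. The 60 shared members were 17.2% of those of replicate 1 (95% Wilson interval 13.6 to 21.6) and 25% of those of replicate 2 (19.9 to 30.8). Over all peaks of the lists the shares were 53.2% and 75%. Distal intergenic peaks within 50 kb of a TSS were found again more often, at 28.5% of 880 (25.6 to 31.6) in replicate 1 and 49.9% of 507 (45.6 to 54.2) in replicate 2. The odds ratio of recurrence, members against these nearer peaks, was 0.522 in replicate 1 (two-sided Fisher's exact test, Benjamini-Hochberg adjusted p = 0.000106 over 20 tests) and 0.335 in replicate 2 (adjusted p = 4.5e-10). Promoter peaks recurred at 66.9% and 86.7%. Both lists share the same 60 regions, so the replicates are not independent tests, and peaks that lie close together depend on each other, which makes the p-values too small.

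The height of a peak moved with its recurrence. Members of 7 to 8 summit fragments in replicate 1 recurred at 1.14% (1 of 88), those of 9 to 10 fragments at 7.89%, those of 11 to 12 at 18%, those of 13 to 16 at 41.3% and those of 17 or more at 59.1%. Nearer distal peaks of the same heights recurred at 1.18%, 6.5%, 17.6%, 33.6% and 69.7%. In replicate 2 members of 6 to 8 fragments recurred at 4.84%, and those of the higher classes at 28.6%, 53.3%, 77.8% and 66.7%, against 10.2%, 40.5%, 50%, 73.5% and 90.5% of the nearer peaks. Over strata of equal summit fragments, an analysis chosen after the data were seen, the Mantel-Haenszel odds ratio of members against nearer distal peaks was 1.22 in replicate 1 (95% interval 0.837 to 1.78, exact conditional test, adjusted p = 0.395 over 6 tests) and 0.736 in replicate 2 (0.483 to 1.12, adjusted p = 0.243). At equal height, then, no difference from the nearer distal peaks passed the test, and differences inside these intervals cannot be told at this depth. Against promoter peaks of equal height the odds ratio was 0.493 (0.355 to 0.685, same exact test, adjusted p = 4.22e-05) in replicate 1 and 0.251 (0.174 to 0.363, adjusted p = 2.84e-13) in replicate 2, so members recurred less often than promoter peaks of the same height. Against intronic peaks it was 1.31 (0.914 to 1.88) and 0.917 (0.617 to 1.36), and neither passed.

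By quartile of the summit fragments of each list, 2 of 8 Fisher's exact tests passed, both in replicate 2. They were the lowest quartile, with 15.6% of 199 members against 27.6% of 279 nearer peaks (adjusted p = 0.00475), and the third, with 4 of 9 members against 85.5% of 83 nearer peaks (Fisher's exact test, adjusted p = 0.0152). The lowest quartile spanned 6 to 11 fragments, and 124 of its 199 members against 128 of its 279 nearer peaks had 6 to 8. Height was therefore not equal within that quartile. All 6 members of the highest quartile recurred in each library, against 84.8% of 79 and 94.2% of 52 nearer peaks, differences that did not pass. For peaks above the list's median fold, recurrence was counted more strictly: the partner also had to be above the median fold of its own list. In replicate 1 the overall difference from the nearer peaks did not pass among these peaks above the median fold (21.2% against 32.0%, Fisher's exact test, adjusted p = 0.061) or among peaks in the lowest quartile of background (11% against 12.5%, adjusted p = 0.669). In replicate 2 both did pass (35% against 54.9%, Fisher's exact test, adjusted p = 0.017, and 18.3% against 27.4%, adjusted p = 0.0331).

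**Figure D2:**
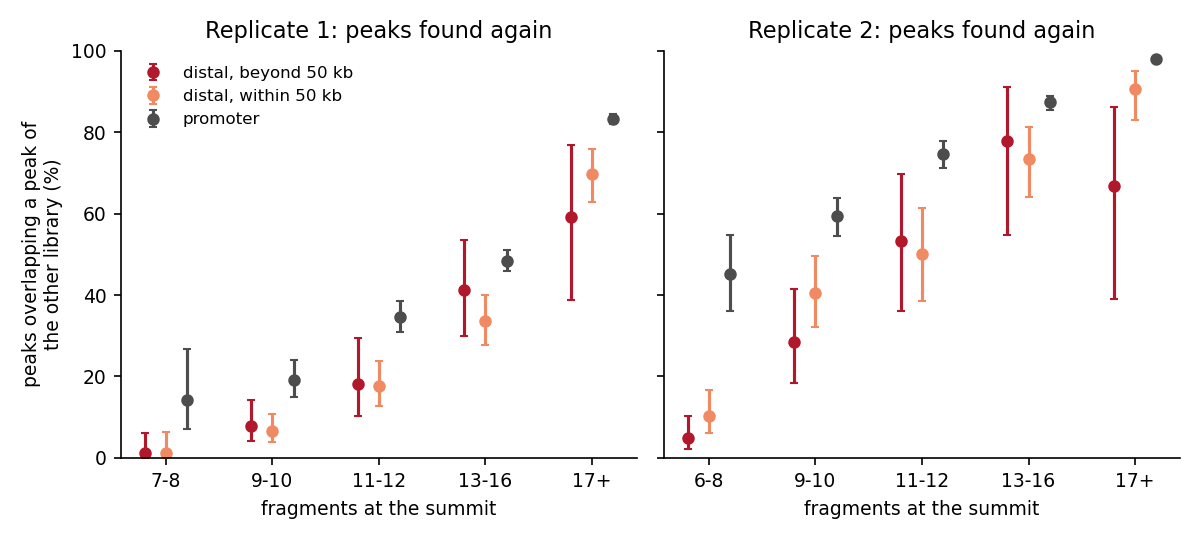
Share of peaks that overlapped a peak of the other library (y axis, %) by fragments at the summit (x axis), for replicate 1 on the left and replicate 2 on the right, with 95% Wilson intervals as bars. In replicate 1 the share of distal peaks beyond 50 kb (red) climbs from 1.14% to 59.1% beside the nearer distal peaks (orange), and promoter peaks (grey) are above both in every height class.

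Members that were shared were taller and wider than those seen once. In replicate 1 the 60 shared members had a median of 14 summit fragments and a width of 508.5 bp, and the 288 others had 9 fragments and 351 bp. In replicate 2 the medians were 11 fragments and 460 bp for the shared members, and 8 fragments and 343.5 bp for the 180 others. These are descriptions, with no test. The strongest members seen in 1 library only were also above the median shared member in fold. In replicate 1 they were chr1:248788030-248788328, 178 kb upstream of KLF4, a zinc finger transcription factor gene used in reprogramming (7.12-fold, 15 fragments), and peaks assigned to the lncRNA genes LOC102161008 (7.11-fold, 17 fragments) and LOC110256985 (6.67-fold, 14 fragments). In replicate 2 they were chr8:54589354-54589905, assigned to LOC100523077 (9.10-fold, 17 fragments over the lowest background), and peaks of the lncRNA genes LOC110257082 (6.59-fold, 17 fragments) and LOC110260444 (5.81-fold, 11 fragments).

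In median strength and width the members lay below promoter peaks, and in width they lay close to intronic ones. The median fold enrichment of members was 4.50 in replicate 1 and 4.51 in replicate 2, against 4.56 and 4.66 for nearer distal peaks, 5.33 and 5.25 for promoter peaks, and 4.37 and 4.39 for intronic peaks. The median number of summit fragments was 10 and 8 for members, 12 and 11 for nearer distal peaks, 19 and 16 for promoter peaks, and 12 and 10 for intronic peaks. Widths had medians of 364.5 and 354.5 bp, 393.5 and 382 bp, 593 and 527 bp, and 365 and 361 bp in the same order. In all, 58.0% of the members of replicate 1 and 75% of those of replicate 2 rested on 10 fragments or fewer.

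Against the median of all distal intergenic peaks, members were less often strong, tall or wide than the nearer peaks. In fold, 42.2% of members against 51.1% of nearer peaks were above it in replicate 1 (Fisher's exact test, adjusted p = 0.0117), and 37.1% against 52.7% in replicate 2 (adjusted p = 0.000241). In summit fragments the shares were 30.2% against 55.6% (same exact test, adjusted p = 1.63e-14) and 25% against 51.9% (adjusted p = 2.32e-11). In width they were 43.7% against 52.5% (exact test, adjusted p = 0.0117) and 42.9% against 53.1% (adjusted p = 0.0152). With members taken beyond 100 kb, the width difference of replicate 1 no longer passed (44.4% against 51.1%, exact test, adjusted p = 0.145). Of these shares, those in summit fragments lay farthest apart.

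High local background was rare among the members. The lowest background was 1.21 fragments in replicate 1 and 0.979 in replicate 2, and 347 and 413 peaks lay within 0.1% of it. Among these were 69 members of replicate 1 (19.8%) against 8.75% of the nearer distal peaks (Fisher's exact test, odds ratio 2.58, adjusted p = 9.77e-07), and 94 members of replicate 2 (39.2%) against 16.6% (odds ratio 3.24, adjusted p = 4.07e-10). Within 5% of the lowest, a limit chosen after the data were seen, lay 31.9% of members against 13.5% in replicate 1 and 49.6% against 20.7% in replicate 2. The median background was 1.38 and 1.04 fragments for members, 1.85 and 1.5 for nearer distal peaks, and 2.67 and 2.18 for promoter peaks. Only 14 members of replicate 1 (4.02%) and 13 of replicate 2 (5.42%) had a background of at least 2 times the lowest, a level reached by 50.0% and 53.2% of all peaks. Above the 95th percentile of each list's background lay 2 members of replicate 1, the chromosome 4 region and chrY:42726749-42728418, and 1 of replicate 2, the chromosome 4 region. These were 0.575% of members against 2.61% of nearer peaks in replicate 1 (Fisher's exact test, adjusted p = 0.0331) and 0.417% against 3.75% in replicate 2 (adjusted p = 0.0117). This last difference did not pass with members beyond 100 kb or without the unplaced scaffolds (exact tests, adjusted p from 0.101 to 0.474). Background rose with summit height among the members, and no source used here says whether it counts a peak's own fragments, so the part of height in these differences was not tested.

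**Figure D3:**
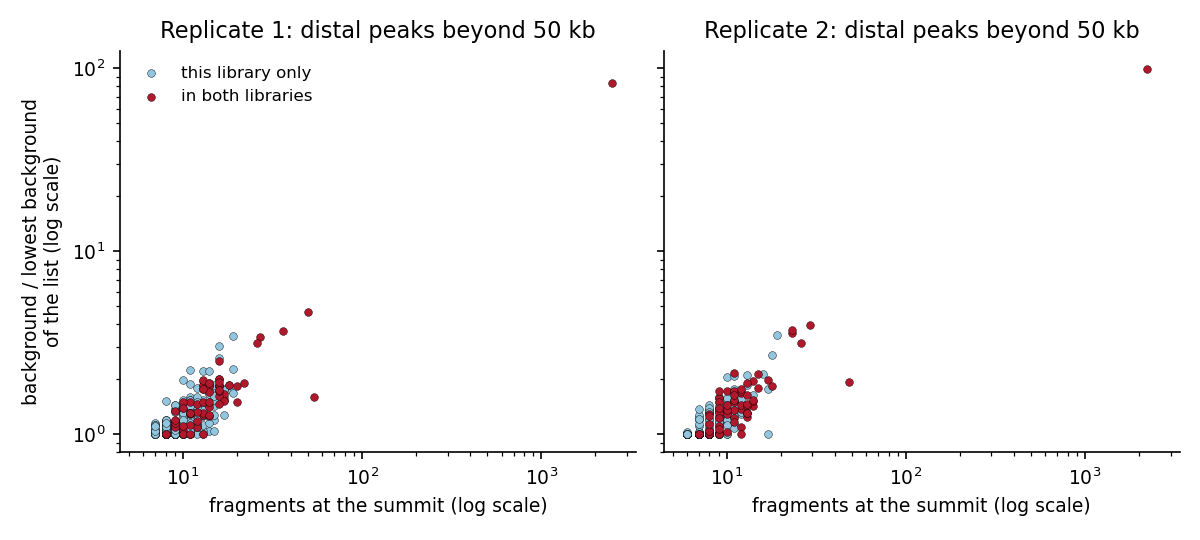
Fragments at the summit (x axis, log scale) and background relative to the lowest of the list (y axis, log scale) of each distal peak beyond 50 kb, for replicate 1 on the left and replicate 2 on the right; red points overlap a peak of the other library and blue points do not. The chromosome 4 region stands alone at 2498 and 2221 fragments and 83.2 and 99.3 times the lowest background, and the outermost region of chromosome Y, at 54 and 48 fragments, has 1.60 and 1.94 times it.

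A member near KIT, the gene of the receptor of stem cell factor and a marker of differentiating spermatogonia, had the highest background outside chromosomes 4 and Y in replicate 1. The peaks chr8:41557134-41557664 and chr8:41567589-41567907, 155 and 165 kb from the KIT TSS and beyond the end of the gene, were at 3.86-fold and 3.64-fold from 19 and 16 fragments over backgrounds of 4.17 and 3.66. Neither was found in replicate 2. The neighbourhood was examined after these values were seen. All 7 peaks of replicate 1 in chr8:40781365-41809116, from CHIC2 to the near end of KDR, had a background between 1.92 and 4.17 (median 2.85), against a median of 2.12 over the 369 peaks of chromosome 8. In the next 600 kb the 5 peaks had a median of 1.28. Replicate 2 had 2 peaks in the same stretch, at the KIT promoter and within the gene, with backgrounds of 3.78 and 2.30, against a chromosome median of 1.74 and a median of 0.979 over the next 600 kb. Duplications of a segment with KIT are known in white pig breeds, and copy number was not tested here.

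**Figure D4:**
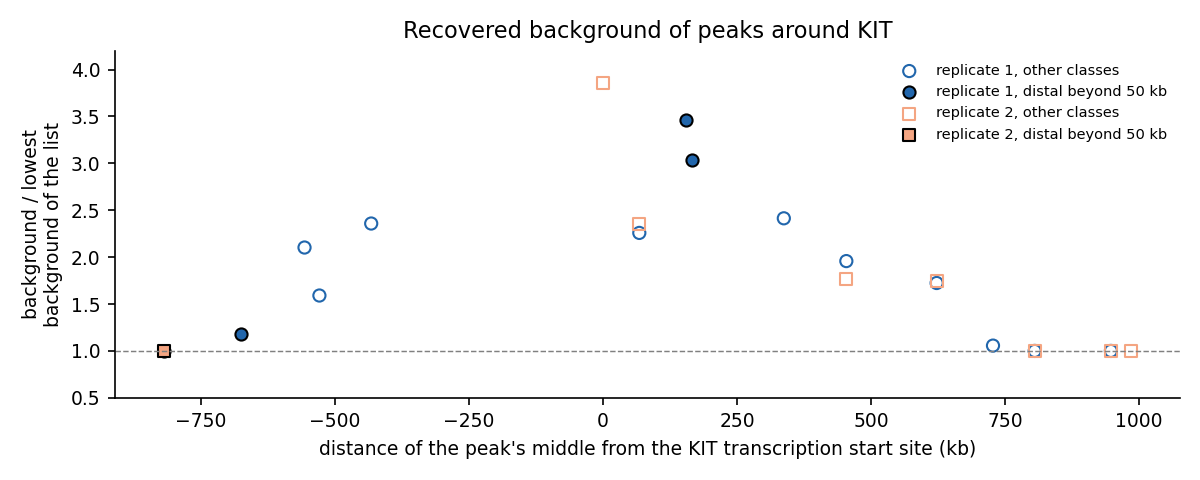
Background relative to the lowest of the list (y axis) of each peak around KIT, by distance of its middle from the KIT TSS (x axis, kb); circles are replicate 1, squares replicate 2, and filled symbols are distal peaks beyond 50 kb. The filled circles 155 and 165 kb from the TSS lie at 3.46 and 3.04 times the lowest background, and most peaks over 700 kb downstream lie at the lowest value, marked by the dashed line.

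Most members had no other member within 50 kb. The nearest peak of any class lay a median of 196 kb away in replicate 1 and 277 kb in replicate 2, against 36.7 and 47.8 kb for nearer distal peaks. Promoter peaks made up 60.8% and 64.0% of the lists, and the rule keeps members more than 50 kb from any TSS. The gaps to peaks of any class therefore depend on the rule. The nearest other member lay a median of 1651 and 2814 kb away. Joined within 50 kb, 32 members of replicate 1 (9.20%) formed 16 runs of 2, and 15 members of replicate 2 (6.25%) formed 7 runs of up to 3. Joined within 10 kb, 12 and 7 members were in runs, and within 200 kb, 66 and 32. The share in runs expected from an even spread was not computed, so these counts do not tell whether members clustered. The run of 3 lay in replicate 2 upstream of KIAA1549L, at chr2:27457253-27467974, with peaks at 5.19-fold, 4.52-fold and 5.33-fold from 18, 19 and 23 fragments. The last of these was shared with replicate 1, where it was at 5.48-fold from 27 fragments, and its background of 4.11 and 3.50 was among the higher values. The longest runs of replicate 1 spanned 47.8 kb at LOC102166079 on chromosome 3, 47.0 kb between NSMCE4A and TACC2 on chromosome 14, and 44.1 kb at KIAA1549L. Those of replicate 2 spanned 48.7 kb at LOC102165580 on chromosome 1 35.5 kb at LOC106504673 and LOC110262011 on chromosome 8, and 31.6 kb at NPTX1 on chromosome 12. Of the members seen once, 6 of 288 in replicate 1 and 8 of 180 in replicate 2 had a peak of the other library within 10 kb. Among nearer distal peaks seen once, 72 of 629 and 27 of 254 did. This difference also depends on the rule, which places members away from the TSSs where most peaks lie.

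Every one of the 20 chromosomes carried a member in each list, and 5 and 4 members lay on unplaced scaffolds. Per 100 Mb there were 14.1 members in replicate 1 and 9.69 in replicate 2. Chromosome 8 was high in both lists, with 21.6 and 16.6 members per 100 Mb, which were 8.13% and 9.13% of its peaks. On chromosome 12 the members were 1.21% and 1.90% of its peaks. Chromosome X had 0.794 and 3.18 members per 100 Mb. Chromosomes 6 and 17 were high in replicate 1 (20.5 and 22.1) and not in replicate 2 (9.95 and 7.89). These are counts of 1 to 40 peaks, and no test of placement was made.

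**Figure D5:**
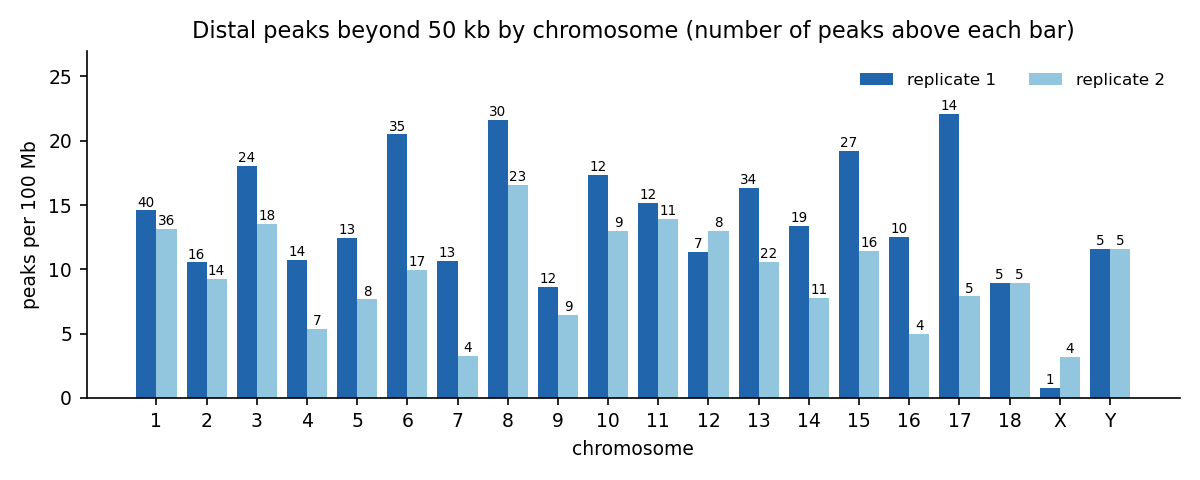
Distal peaks beyond 50 kb per 100 Mb (y axis) on each chromosome (x axis), with replicate 1 in dark blue, replicate 2 in light blue and the number of peaks above each bar. Chromosome 8 is high in both libraries (21.6 and 16.6), and chromosome X is the lowest in both (0.794 and 3.18).

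The genome more than 50 kb from either end of any annotated gene made up 485.5 Mb, or 19.9% of the chromosomes. Its members numbered 51.5 per 100 Mb (45.3 to 58.3 by the exact Poisson method) for replicate 1 and 34.6 (29.6 to 40.2) for replicate 2. The other distal intergenic peaks numbered 155 and 90.4 per 100 Mb of the remaining intergenic sequence. Peaks of any class numbered 416 and 295 per 100 Mb of the whole genome, but most were promoter peaks, which cannot lie so far from genes. On the chromosomes 250 of 343 members of replicate 1 (72.9%) and 168 of 236 of replicate 2 (71.2%) had no gene within 50 kb of either end. The others were far from a TSS and yet near the far end of a gene. The authors' assignment names the nearest TSS, which need not be the nearest gene.

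The assigned genes were unlike those of the lists as a whole. In replicate 1, 35.9% of members and in replicate 2, 32.9% were assigned to lncRNA genes, against 22.6% and 17.8% of nearer distal peaks and 10.4% and 9.18% of all peaks. Protein-coding genes took 50.9% and 52.5% of members, against 86.1% and 87.4% of all peaks. Upstream of the assigned gene lay 48.9% and 50.4% of members, against 67.2% and 69.8% of nearer distal peaks. An intergenic peak downstream of its TSS must lie past the end of that gene. The difference in upstream shares therefore depends on the distance limit of the rule. No test was made of these shares. Of 25 marker genes of undifferentiated spermatogonia, Sertoli cells, Leydig cells, peritubular cells and macrophages, 0 were assigned a member in either list, and 1.04% and 0.733% of all 29886 gene symbols annotated by RefSeq were. Peaks do not measure expression, so the labelled cell type could not be checked with them.

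The members farthest from a TSS, apart from chromosome Y, were each seen in 1 library only. So were 288 of all 348 members of replicate 1 and 180 of all 240 of replicate 2. These farthest members rested on 7 to 9 summit fragments. At such heights at most 7.89% of members of replicate 1 and 28.6% of those of replicate 2 recurred. In replicate 1 they lay 891 kb from LOC102164005 (4.08-fold, 8 fragments), 817 kb from LOC110257281 and 797 kb from LOC102158494. In replicate 2 they lay 809 kb from the TSS of FSTL5, a gene of a secreted follistatin-like protein (4.66-fold, 9 fragments), 707 kb from LOC106504728 and 685 kb from LOC102164005. The FSTL5 peak was only 20.5 kb from the far end of that gene. The rule's limit split peaks of like distance. Just beyond it were peaks of SEMA4F (50047 bp, 4.57-fold), CDCA7 (50082 bp, 4.86-fold) and LOC102161206 (50222 bp, 5.04-fold) in replicate 1, and of FBXO3 (50037 bp, 4.57-fold), CDCA7 (50170 bp, 5.47-fold) and LOC106504931 (50895 bp, 4.04-fold) in replicate 2. Just within it were peaks of PKDCC (49971 bp, 4.02-fold), LOC110257307 (49959 bp, 4.45-fold) and DOCK10 (49943 bp, 29.6-fold) in replicate 1, and of DOCK10 (49951 bp, 27.6-fold), LOC102164496 (49934 bp, 3.54-fold) and FOSL2 (49765 bp, 4.22-fold) in replicate 2. The DOCK10 peak, with 951 and 657 fragments over backgrounds of 31.1 and 22.9, was therefore no member in either list.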

How the data were processed

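CUT&Tag peaks of ZBTB16 were deposited as 1 list per library on Sscrofa11.1, the build named in the submitters' processing notes. No source used here gives the aligner, the peak caller and its control, or the depth of sequencing. Per the file headers, the authors gave each peak a position, a width, a summit, a fold enrichment (a ratio over background), a −log10 p-value and a −log10 q-value, a score, an annotation class, an assigned gene and a distance to the TSS. The deposited score was not used. In both lists the −log10 q-value was at least 1.31. The labels do not say whether the replicates came from separate animals or cultures, so their spread may be technical.

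Summit fragments and background were recovered by taking the deposited fold as (fragments + 1)/(background + 1) and the p-value as an upper Poisson tail, and whole fragments were found within a relative tolerance of 1e-05 for 100% of peaks. On 812 simulated peaks 100% were recovered. Chromosomes named by the numbers after 18 held the genes of X and Y. A peak was shared when it overlapped any peak of the other library by at least 1 bp. In the comparison of peaks above the list's median fold, only partners above the median fold of their own list counted. Members were set against distal intergenic peaks within 50 kb by two-sided Fisher's exact tests with Benjamini-Hochberg adjustment over 20 tests and a threshold of 0.05, and over strata of equal summit fragments by Mantel-Haenszel odds ratios with an exact conditional test adjusted over 6. Strata held 346 and 238 members, since the tallest had no partner of equal height. On 200 simulated sets each, that test called 3.5% with no difference and 100% at the simulated lower odds. Those sets had fewer and larger strata than the data. Their simulated difference was also stronger than the one seen against nearer distal peaks, so the 100% does not give the power of that comparison. Wilson and Poisson intervals are at 95% and cover counting error only. Gene ends and biotypes were taken from the RefSeq table for Sscrofa11.1, and chromosome lengths run to the last annotated gene or peak. Named are the 10 shared members of best rank in both lists, the 3 strongest unshared members, the 3 longest runs, the 3 of highest background, the 3 farthest from a TSS, those nearest the limit, and genes with 3 or more members. The members and lists were chosen with earlier results of these data known. Tools were scipy 1.17.1, statsmodels 0.14.6, numpy 2.4.6, pandas 2.3.3, matplotlib 3.10.9 and Python 3.11.15.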

Additional observations from a re-analysis of the deposited data

How the results depend on the processing

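Of 54 alternative values, 36 kept their direction and their side of the threshold or moved by less than the limit set for a change. In replicate 1 the recurrence of members no longer passed against nearer distal peaks above the list's median fold (21.2%, Fisher's exact test, adjusted p = 0.061) or in the lowest quartile of background (11%, adjusted p = 0.669), while in replicate 2 both passed (35% and 18.3%). The setting above the median fold also required the partner to be above the median fold of its own list. Width in replicate 1 no longer passed beyond 100 kb (44.4%, Fisher's exact test, adjusted p = 0.145). The share above the 95th percentile of background no longer passed beyond 100 kb (1.02% and 0.763% in replicates 1 and 2) or on the chromosomes alone (0.583% and 0.424%). Over strata of equal summit fragments the odds ratio of recurrence turned from 0.522 to 1.22 in replicate 1, with an interval that spans 1, and moved from 0.335 to 0.736 in replicate 2. Beyond 100 kb there were 196 and 131 members. Runs held 12 and 7 members when joined within 10 kb, and 66 and 32 within 200 kb. Taken from 1 list at a time, the share of members that recurred ran from 17.2% to 25% (20.4% over both) and the median fold from 4.50 to 4.51. Apart from the strata, whose own construction compares peaks of equal height, the cause was not tested. The strata, the wider limit on the lowest background, the lists without chromosome Y and the chromosome 4 region, and recurrence on the chromosomes alone were chosen after seeing the data. Base composition and motifs around the summits were not run, since they need a genome. No paired analysis was possible because there is 1 group. The few fragments at most summits limit what can be told of any single member.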

Other observations

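A few further shared regions are given here by the gene the authors assigned, picked after their values were seen. The JUN gene, which encodes a subunit of the AP-1 factor, had 2 members in each list. The region chr6:153562382-153562732, 124 kb upstream of JUN, was shared at 4.93-fold in replicate 1 and 6.03-fold in replicate 2, with 14 fragments in each. MARCKS, which encodes a substrate of protein kinase C, also had 2 members in each list, of which the one 291 kb upstream was shared at 5.53-fold and 4.38-fold. A region 156 kb upstream of CREB1, the gene of a factor that answers to cyclic AMP, was at 5.37-fold and 6.14-fold. LOC102167165 was annotated nearer to that region, at 147 kb. A region 65.0 kb upstream of MGA, whose protein pairs with MAX and is known for repressing germ cell genes, was at 5.0-fold and 4.55-fold, and LOC110259510 (20.5 kb) and TYRO3 (48.4 kb) were annotated nearer to it. Regions upstream of EBF2 (4.69-fold and 6.26-fold) and of ZFPM2 (3.91-fold and 3.72-fold), which encodes a cofactor of GATA factors, were shared as well. These are single regions of 9 to 16 summit fragments in each library, and they stand for no gene group.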
